A study of Mus musculus with 45 samples.

Results

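The genes described are 10 that encode the pentose phosphate pathway and the other main NADPH-forming enzymes outside folate metabolism. They were chosen by symbol as G6pdx, Pgls, Pgd, Tkt, Taldo1, Me1, Me2, Idh1, Idh2 and Nnt, out of 28454 rows of a table of read counts, and all 10 passed the filter on low counts in every comparison. Nnt has a pair of rows, of which the one with the larger counts was used unless both are named.

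NADPH carries the electrons with which glutathione reductase and thioredoxin reductase keep glutathione and thioredoxin reduced, and it also feeds the synthesis of fatty acids, sterols and proline. The oxidative branch of the pentose phosphate pathway forms it in the cytosol at the steps of G6pdx and Pgd, and the malic enzymes and isocitrate dehydrogenases form it from malate and isocitrate in the cytosol (Me1, Idh1) or the mitochondrion (Me2, Idh2). Cystine taken up by a cell is reduced to cysteine at the expense of NADPH, and cysteine is in turn a building block of glutathione.

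Polyadenylated RNA was sequenced from 45 cultures of 11 mouse mammary tumour cell lines, 3 cultures for each of 15 groups. MYAZ16.1e, MYAZ12.3i and MYAZ6.6g (MYAZ) come from mammary tumours of mice with an MMTV-cMYC transgene, in which the mouse mammary tumour virus promoter drives cMYC. Myc310 is 1 line, from a transgenic animal with several tumours. LM1, LM2 and LM3 (LM) were isolated from the lungs of FVB/NJ mice given Myc310 cells in the mammary fat pad. LM1-LM, LM2-LM and LM3-LM (LM-LM) were taken from lungs after a further passage of LM1 cells in the same way. The line labelled MYAZ12.3i-NDI1 is known here only by that label, and what it carries was not analysed here. All 11 lines spent 24 h in full medium and then 6 h in control medium. LM1-LM, LM1, Myc310 and MYAZ16.1e were also given medium free of cysteine and cystine for those 6 h (cysteine/cystine deprivation). All groups share the MMTV-cMYC origin. In the deprivation experiment each subtype is 1 line, and the study calls cultures of a line technical replicates, so that p-values measure the spread between cultures of these lines.

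The libraries held 19517859 to 29019988 counts on genes. Of the mammary epithelial markers, Krt8 and Krt18 were high in all groups (the lowest group mean was 99.0 CPM, for Krt18), whereas Krt5, Krt14, Epcam and Cdh1 had at most 24 counts in any library. The 8 fibroblast markers summed to 7.46 to 88.1 CPM in MYAZ and 94.6 to 99.1 CPM in MYAZ12.3i-NDI1, against 1.26 to 2.58 CPM in Myc310, 2.49 to 23.2 CPM in LM and 3.53 to 18.8 CPM in LM-LM. The largest sums came mostly from Pdgfra (48.3 CPM in MYAZ12.3i and 20.5 CPM in LM2) and Pdgfrb (33.4 CPM in MYAZ12.3i and 22.5 CPM in MYAZ6.6g), as means in control medium. Of the 8, 3 had 3 counts or fewer in all 45 libraries. Their part in the differences between subtypes was not tested. Leukocyte, endothelial and alveolar epithelial markers summed to at most 1.38, 6.56 and 1.97 CPM.

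The promoters of 4 of the genes are shown because in Myc310, LM1 and LM1-LM Idh1, Pgd and G6pdx had the largest decreases of the 10 under deprivation, and because Me1 had the only increase, in LM1 and LM1-LM. In MYAZ16.1e the change of G6pdx did not pass the test. The sequences are those of RefSeq on GRCm38.p6, all on the minus strand, from 250 bases before to 30 bases after the outermost listed start, written 5′ to 3′. Capitals mark the antioxidant response element, searched as TGACNNNGC on both strands.
G6pdx, chrX:74428851-74429130: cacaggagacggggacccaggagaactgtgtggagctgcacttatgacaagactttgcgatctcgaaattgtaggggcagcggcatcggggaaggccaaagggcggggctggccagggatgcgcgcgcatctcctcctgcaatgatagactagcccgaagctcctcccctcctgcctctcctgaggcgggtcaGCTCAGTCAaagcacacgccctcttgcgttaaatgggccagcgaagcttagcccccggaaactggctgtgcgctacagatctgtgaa
Pgd, chr4:149166676-149166955: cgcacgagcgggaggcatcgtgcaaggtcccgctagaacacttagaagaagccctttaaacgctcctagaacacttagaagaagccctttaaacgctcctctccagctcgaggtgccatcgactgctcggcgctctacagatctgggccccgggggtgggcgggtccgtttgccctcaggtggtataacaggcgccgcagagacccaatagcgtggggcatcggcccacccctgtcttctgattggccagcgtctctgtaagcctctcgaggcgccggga
Idh1, chr1:65186450-65186729: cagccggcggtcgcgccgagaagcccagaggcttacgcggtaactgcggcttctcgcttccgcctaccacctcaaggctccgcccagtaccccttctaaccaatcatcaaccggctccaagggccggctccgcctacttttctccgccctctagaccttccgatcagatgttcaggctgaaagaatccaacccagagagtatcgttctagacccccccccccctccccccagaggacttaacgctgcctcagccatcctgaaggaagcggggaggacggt
Me1, chr9:86695885-86696164: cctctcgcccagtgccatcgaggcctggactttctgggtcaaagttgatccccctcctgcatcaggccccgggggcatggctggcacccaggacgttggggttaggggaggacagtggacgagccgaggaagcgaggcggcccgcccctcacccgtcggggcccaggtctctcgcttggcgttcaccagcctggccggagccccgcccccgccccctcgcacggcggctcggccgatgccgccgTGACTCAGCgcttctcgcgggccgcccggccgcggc
The G6pdx match reads GCTCAGTCA on the strand shown and begins 57 bases before the start, and the Me1 match reads TGACTCAGC and begins 6 bases before it. No match lay in the Pgd and Idh1 windows, although a second, internal start of Pgd had TGACATTGC beginning 3 bases after it. Such a match occurs in 11.5% of 32851 RefSeq promoter windows of the same length. None of the 11 windows searched, which belong to 8 of the genes, held a sterol regulatory element searched as TCACNCCAC (1.18% of windows), an E-box CACGTG (6.79%) or an amino acid response element TGATGNAA (3.81%). Me2 and Nnt were not searched. A match is a run of letters and says nothing about binding, and its absence in one window says nothing about the factor.

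The deprivation experiment asked how lines of different metastatic potential respond to the loss of cysteine and cystine. Myc310, LM1 and LM1-LM are of 1 lineage, so that lineage and metastatic potential cannot be told apart. After 6 h most of the 10 transcripts were lower in Myc310, LM1 and LM1-LM, and Idh1, Pgd, Me2 and Taldo1 were lower in MYAZ16.1e. Idh1 fell most of the 10 in every line, and Me1 was the only one of the 10 to rise, in LM1 and LM1-LM. Of the 10 genes, 4 passed the threshold of an adjusted p of 0.05 in MYAZ16.1e (0 higher, 4 lower), where 53.7% of all 13400 genes tested did (26.6% higher, 27.1% lower). In Myc310 8 passed (0 higher, 8 lower), where 66.8% of all genes did (32.8% higher, 33.9% lower). In LM1 and in LM1-LM all 10 passed (1 higher, 9 lower), where 71.1% of all genes did in LM1 (35.8% higher, 35.3% lower) and 72.4% in LM1-LM (36.5% higher, 35.9% lower). The 3 deprived and 3 control libraries did not overlap for 5 of the 10 genes in MYAZ16.1e, 7 in Myc310 and 10 in each of LM1 and LM1-LM, where 58.9%, 69.4%, 73.4% and 74% of all genes did not overlap. So many genes moved that the total count of members is not far from the share of all genes. In the lower direction 9 of the 10 passed in LM1 and LM1-LM, against 35.3% and 35.9% of all genes. The median log2 fold change of the 10 genes went from -0.056 in MYAZ16.1e and -0.20 in Myc310 to -0.30 in LM1 and -0.28 in LM1-LM, where the median over all genes lay between -0.013 and 0. The median absolute change of the members, between 0.070 and 0.32, was below that of all genes, between 0.23 and 0.48, in each of the 4 lines. Levels are read counts scaled to a common library size after TMM normalisation (CPM). Every adjusted p is from the quasi-likelihood F-test of edgeR, adjusted by Benjamini-Hochberg over all genes tested.

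**Figure D1:**
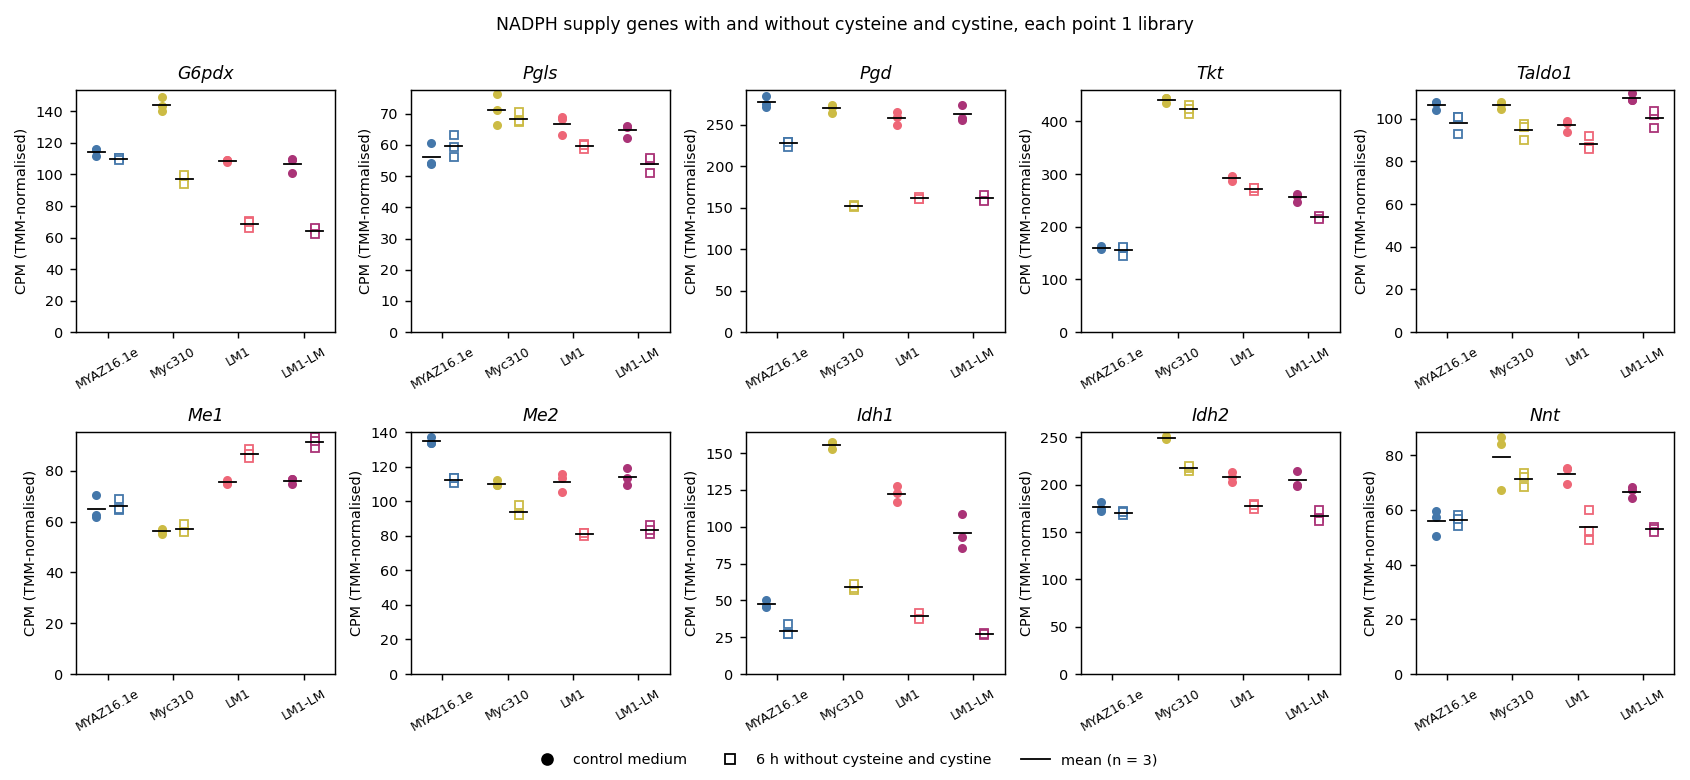
CPM of the 10 genes in control medium (filled circles) and after 6 h without cysteine and cystine (open squares) in 4 lines, each point 1 library and each bar the mean of 3. Idh1, G6pdx and Pgd separate the media in Myc310, LM1 and LM1-LM, and Me1 is higher without cysteine and cystine in LM1 and LM1-LM.

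G6pdx (ENSMUSG00000031400, GRCm38 chrX:74409483-74429194, minus strand) encodes glucose-6-phosphate dehydrogenase, which opens the pentose phosphate pathway and forms its first NADPH. In MYAZ16.1e its level was 116, 116 and 111 CPM in control medium and 111, 110.5 and 109 CPM without cysteine and cystine. The corresponding values were 143, 149 and 140.1 CPM and 98.2, 93.6 and 99.6 CPM in Myc310. In LM1 they were 109, 109 and 108 CPM and 66.1, 70.4 and 69.9 CPM, and in LM1-LM 109.6, 109 and 101 CPM and 65.3, 65.9 and 62.0 CPM. The deprived cultures of Myc310, LM1 and LM1-LM were all far below their controls, and those of MYAZ16.1e lay just under theirs. The log2 fold change was -0.58 (standard error 0.034, adjusted p = 1.82e-15) for Myc310, where G6pdx decreased by 33.2%. For LM1 it was -0.62 (standard error 0.037, adjusted p = 1.05e-15) and for LM1-LM -0.69 (standard error 0.037, adjusted p = 8.17e-17), so that G6pdx decreased by 35.1% and 38.0%. In MYAZ16.1e it was -0.059 (standard error 0.034, adjusted p = 0.154), which did not pass. The response differed from that of MYAZ16.1e by -0.52 in Myc310, by -0.56 in LM1 and by -0.63 in LM1-LM on the log2 scale (adjusted p = 5.26e-10, 6.83e-11 and 5.19e-12 for the interaction). Differences in response against MYAZ16.1e share its 6 libraries. In Myc310 4 of the 10 members passed (0 higher, 4 lower), where 40.3% of all genes did (19.8% higher, 20.4% lower). In LM1 8 passed (1 higher, 7 lower), where 52.2% of all genes did (26.9% higher, 25.3% lower). For LM1-LM the number was 9 (1 higher, 8 lower), where 54.8% did (28.4% higher, 26.4% lower). G6pdx overlaps Ikbkg on the other strand, and the sources used here do not state whether counting used strand.

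Pgd (ENSMUSG00000028961, chr4:149149991-149166771, minus strand), the 6-phosphogluconate dehydrogenase that forms the second NADPH of the pathway, fell in all 4 lines. Its level in MYAZ16.1e was 285, 275 and 272 CPM in control medium and 229.8, 223 and 229.8 CPM after deprivation. In Myc310 it went from 274, 264 and 272 CPM to 151, 153 and 152 CPM. LM1 had 259.9, 265 and 249.8 CPM and 160.0, 163 and 161 CPM, and LM1-LM had 274, 256 and 258 CPM and 159.6, 165 and 159 CPM. The media did not overlap in any line, and the deprived cultures of Myc310, LM1 and LM1-LM ended within 151 to 165 CPM whereas those of MYAZ16.1e stayed above 222 CPM. Its log2 fold change was -0.29 (standard error 0.028, adjusted p = 2.8e-10) in MYAZ16.1e and -0.84 (standard error 0.029, adjusted p = 2.25e-21) in Myc310. It was -0.64 (standard error 0.029, adjusted p = 1.22e-18) in LM1 and -0.67 (standard error 0.028, adjusted p = 3.75e-19) in LM1-LM. Against MYAZ16.1e the response differed by -0.55 (adjusted p = 3.32e-12) in Myc310, by -0.35 (adjusted p = 9.28e-09) in LM1 and by -0.38 (adjusted p = 2.11e-09) in LM1-LM.

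Pgls (ENSMUSG00000031807, chr8:71592176-71601092, plus strand), whose product hydrolyses the lactone between the steps of G6pdx and Pgd, moved little. Its deprived cultures overlapped the controls in MYAZ16.1e and Myc310, with log2 fold changes of 0.081 (adjusted p = 0.198) and -0.073 (adjusted p = 0.205). The Myc310 change passed without control replicate 3. It fell in LM1-LM, from 64.7 ± 2.03 CPM to 53.9 ± 2.69 CPM (SD, n = 3), a log2 fold change of -0.23 (standard error 0.052, adjusted p = 0.00029). In LM1 the change was -0.13 (adjusted p = 0.0298), and it missed the threshold when any of 3 single libraries was left out (LM1 control replicate 1 or 2, or deprived replicate 2). The response of Pgls differed from that of MYAZ16.1e by -0.21 (adjusted p = 0.018) in LM1 and -0.31 (adjusted p = 0.000707) in LM1-LM. The LM1 difference was lost without MYAZ16.1e control replicate 3 or deprived replicate 2. For Myc310 the difference was -0.15 (adjusted p = 0.0923), with a 95% interval of -0.31 to -0.00079, and it passed without MYAZ16.1e control replicate 2, MYAZ16.1e deprived replicate 1 or Myc310 control replicate 3. Pgls overlaps Fam129c on the same strand, and reads there could go to either gene.

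Transketolase (Tkt, ENSMUSG00000021957, chr14:30548359-30574720, plus strand) and transaldolase (Taldo1, ENSMUSG00000025503, chr7:141392199-141402968, plus strand) are enzymes of the non-oxidative branch, which returns pentoses to glycolysis. Their log2 fold changes were smaller than those of G6pdx and Pgd in Myc310, LM1 and LM1-LM. Tkt fell from 256 ± 8.19 CPM to 218 ± 3.85 CPM (SD, n = 3) in LM1-LM, a log2 fold change of -0.20 (standard error 0.030, adjusted p = 1.14e-06). In Myc310 and LM1 it was -0.074 (adjusted p = 0.0247) and -0.077 (adjusted p = 0.0231), calls that ended without any of 3 Myc310 libraries (control replicate 2 or 3, deprived replicate 2) or 2 LM1 libraries (control replicate 2, deprived replicate 1). The value in MYAZ16.1e was -0.052 (adjusted p = 0.177), which passed without deprived replicate 3. Taldo1 was lower in all 4 lines, with log2 fold changes of -0.12 (adjusted p = 0.00618) in MYAZ16.1e and -0.18 (adjusted p = 9.68e-05) in Myc310, and of -0.10 (adjusted p = 0.0181) in LM1 and -0.092 (adjusted p = 0.0287) in LM1-LM. The call in MYAZ16.1e was lost without deprived replicate 1, that in LM1 without control or deprived replicate 2, and that in LM1-LM without control replicate 1 or deprived replicate 3. Neither gene's response was shown to differ between MYAZ16.1e and the other lines, apart from Tkt in LM1-LM (-0.14, adjusted p = 0.00641). The Tkt difference was -0.022, adjusted p = 0.729 for Myc310 and -0.025, adjusted p = 0.672 for LM1. The interval of the Taldo1 difference was -0.17 to 0.055 for Myc310, -0.094 to 0.13 for LM1 and -0.080 to 0.14 for LM1-LM.

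In LM1 and LM1-LM the cytosolic malic enzyme rose and the mitochondrial one fell. Me1 (ENSMUSG00000032418, chr9:86581371-86695953, minus strand), which makes cytosolic NADPH from malate, was at 75.1, 76.4 and 74.6 CPM in LM1 controls and 88.4, 86.7 and 84.9 CPM after deprivation. In LM1-LM it was at 74.8, 76.7 and 76.6 CPM and 93.3, 88.9 and 91.5 CPM. All deprived cultures of LM1 and LM1-LM lay above their controls, and the log2 fold change was 0.24 (standard error 0.041, adjusted p = 7.44e-06) and 0.30 (standard error 0.041, adjusted p = 9.88e-08), or 17.9% and 23.2% more. In the other lines the media overlapped, at 62.5, 61.6 and 70.5 CPM and 68.8, 64.5 and 64.8 CPM in MYAZ16.1e. Myc310 had 56.9, 56.2 and 55.2 CPM and 56.3, 55.7 and 59.2 CPM. The change there was 0.015 (adjusted p = 0.804) in MYAZ16.1e and 0.011 (adjusted p = 0.839) in Myc310. The response of LM1 and LM1-LM exceeded that of MYAZ16.1e by 0.22 (adjusted p = 0.00212) and 0.29 (adjusted p = 0.000116), and that of Myc310 differed from it by -0.0036 (adjusted p = 0.984) with an interval of -0.13 to 0.13. Without MYAZ16.1e control replicate 3 the LM1 difference was 0.15, adjusted p = 0.0204. Me1 overlaps Gm38230 on the same strand and A330041J22Rik on the other.

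Me2 (ENSMUSG00000024556), the mitochondrial malic enzyme that can use NAD as well as NADP, fell in all 4 lines. It was at 137, 134 and 134 CPM in MYAZ16.1e controls and 110.3, 113 and 114 CPM after deprivation. In LM1 the values were 116, 105 and 113 CPM and 81.5, 80.0 and 81.7 CPM. The media did not overlap in any line, Myc310 (110.3 to 94.1 CPM in the mean) and LM1-LM (114 to 83.6 CPM) included. This gave log2 fold changes of -0.27 (standard error 0.034, adjusted p = 7.47e-08) in MYAZ16.1e and -0.24 (standard error 0.035, adjusted p = 4.17e-07) in Myc310. It was -0.42 (standard error 0.036, adjusted p = 7.18e-12) in LM1 and -0.41 (standard error 0.035, adjusted p = 8.26e-12) in LM1-LM. The response differed from that of MYAZ16.1e by -0.15 (adjusted p = 0.00954) in LM1 and -0.14 (adjusted p = 0.0137) in LM1-LM, the latter lost without LM1-LM control replicate 2 or deprived replicate 1. The difference for Myc310 was 0.026 (adjusted p = 0.727), with an interval of -0.078 to 0.13. Me3, the third malic enzyme, had 6 to 93 counts per library.

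Idh1 (ENSMUSG00000025950, chr1:65158616-65186500, minus strand), the cytosolic NADP-dependent isocitrate dehydrogenase, fell further than the other 9 genes in each line. In MYAZ16.1e its level was 50.1, 45.6 and 46.1 CPM in control medium and 27.1, 27.0 and 33.7 CPM without cysteine and cystine. In Myc310 it was 153, 157 and 158 CPM and 56.9, 58.4 and 61.0 CPM. LM1 had 123, 128 and 117 CPM and 39.0, 41.2 and 37.7 CPM, and LM1-LM had 108, 92.9 and 85.9 CPM and 27.7, 26.6 and 27.1 CPM. The media did not overlap in any line, and LM1-LM, which started at a mean of 95.7 CPM against 47.3 CPM in MYAZ16.1e, ended at 27.1 CPM against 29.3 CPM. Idh1 decreased by 37.9% in MYAZ16.1e, with a log2 fold change of -0.69 (standard error 0.075, adjusted p = 4.9e-09). It decreased by 62.6% in Myc310 (-1.42, adjusted p = 2.02e-18), by 67.1% in LM1 (-1.60, adjusted p = 3.09e-19) and by 70.9% in LM1-LM (-1.78, adjusted p = 8.4e-20), with standard errors of 0.063 to 0.075 over the 4 lines. The response differed from that of MYAZ16.1e by -0.73 (adjusted p = 5.51e-07) in Myc310, by -0.92 (adjusted p = 6.73e-09) in LM1 and by -1.09 (adjusted p = 3e-10) in LM1-LM. Differences in response among Myc310, LM1 and LM1-LM were not tested.

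Idh2 (ENSMUSG00000030541, chr7:80094846-80115392, minus strand), the mitochondrial NADP-dependent isocitrate dehydrogenase, fell by much less. Its mean went from 249.9 ± 1.23 CPM to 218 ± 2.65 CPM (SD, n = 3) in Myc310, a log2 fold change of -0.21 (standard error 0.029, adjusted p = 1.67e-07). It was -0.19 (adjusted p = 1.19e-06) in LM1 and -0.26 (adjusted p = 5.45e-09) in LM1-LM, with no overlap between the media in these 3 lines. In MYAZ16.1e the media overlapped and the change was -0.051 (adjusted p = 0.16). The differences in response were -0.16 (adjusted p = 0.00245), -0.14 (adjusted p = 0.00565) and -0.21 (adjusted p = 0.000119) in Myc310, LM1 and LM1-LM. Idh2 overlaps Gm45203 on the same strand.

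Nnt (ENSMUSG00000025453, chr13:119335448-119408997, minus strand) encodes the transhydrogenase of the inner mitochondrial membrane, which makes NADPH from NADH with the proton gradient. A second annotated record of the same gene (ENSMUSG00000116207) covers almost the same interval. Counts were spread unevenly between the records, with 0 counts on the second record in 30 libraries and 4 to 630 in the other 15. How reads were assigned to the records was not tested. The summed level of both records therefore stands beside that of the main one. In Myc310 controls the main record had 67.2, 84.0 and 86.6 CPM and the sum 87.8, 84.0 and 86.6 CPM, against 68.6, 73.5 and 71.9 CPM for the sum after deprivation, where the second record had no count. With the sum the media did not overlap, whereas with the main record they did. The main record gave log2 fold changes of 0.014 (adjusted p = 0.898) in MYAZ16.1e and -0.16 (adjusted p = 0.0392) in Myc310, and of -0.41 (adjusted p = 9.96e-06) in LM1 and -0.29 (adjusted p = 0.000626) in LM1-LM. The sum gave -0.054 (adjusted p = 0.311) and -0.29 (adjusted p = 3.68e-07), then -0.31 (adjusted p = 1.29e-07) and -0.34 (adjusted p = 2.86e-08). The main-record call in Myc310 was lost without control replicate 2 or 3 or deprived replicate 1 or 3, with DESeq2 and with only the libraries of that line. The response of Myc310 minus that of MYAZ16.1e was -0.18 (adjusted p = 0.171) for the main record and -0.23 (adjusted p = 0.00228) for the sum. This main-record difference passed without Myc310 control replicate 1. For LM1 and LM1-LM the difference was -0.42 (adjusted p = 0.000911) and -0.31 (adjusted p = 0.0124) for the main record, and -0.26 (adjusted p = 0.000613) and -0.29 (adjusted p = 0.000193) for the sum. The main-record difference of LM1-LM was lost without MYAZ16.1e control replicate 3.

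**Figure D2:**
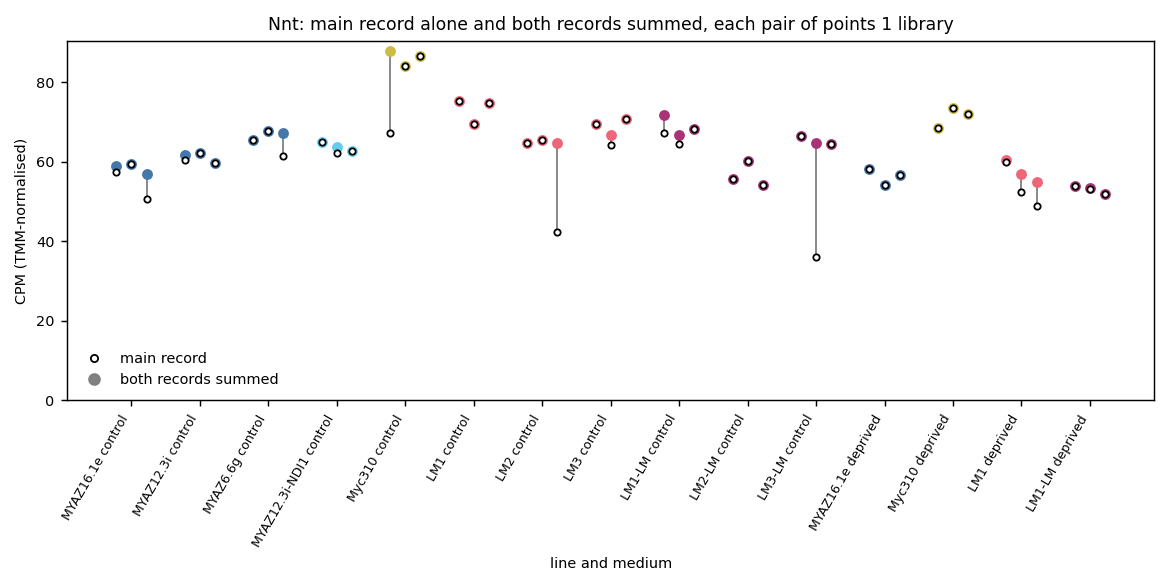
CPM of Nnt in all 45 libraries, with the main record as open black circles and both records summed as filled circles, joined by a line. The main record drops far below the sum in Myc310 control replicate 1, LM2 control replicate 3 and LM3-LM control replicate 2, while the sums of each group lie close together.

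**Figure D3:**
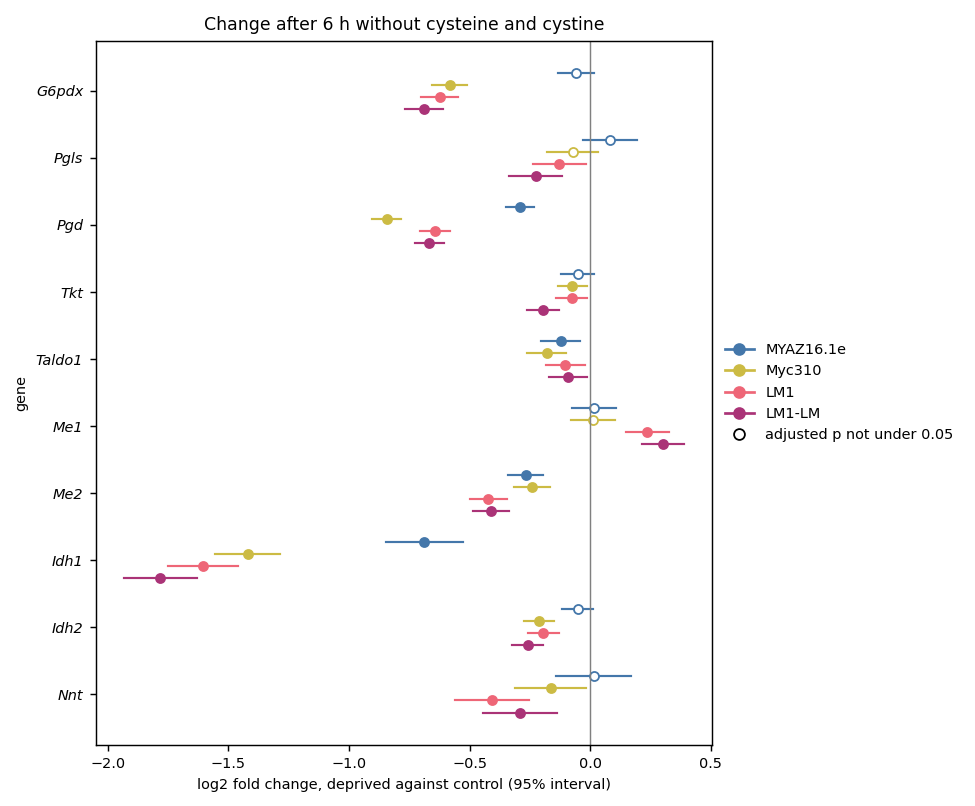
Log2 fold change of each gene after deprivation in 4 lines, with 95% intervals, from edgeR's quasi-likelihood fit, open where the adjusted p was not under 0.05. Idh1 lies farthest to the left, from -0.69 in MYAZ16.1e to -1.78 in LM1-LM, and Me1 lies to the right of 0 in LM1 and LM1-LM.

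Other genes around NADPH were counted from lists. Among 8 further pentose phosphate genes that were tested, 7 passed in MYAZ16.1e (1 higher, 6 lower), 5 in Myc310 (1 higher, 4 lower) and 7 in both LM1 and LM1-LM (2 higher, 5 lower in each). Prps2, which turns ribose 5-phosphate into the precursor of nucleotides, fell by 0.79 in MYAZ16.1e and 1.52 in Myc310, and fell by 2.06 in LM1 and 2.18 in LM1-LM, on the log2 scale. H6pd, which carries out the first oxidative steps within the endoplasmic reticulum, fell by 0.11, 0.53, 0.90 and 0.98 in the same order. Shpk, which phosphorylates sedoheptulose for the non-oxidative branch, rose by 2.54 in Myc310, the least of the 4 lines, and 3.35 in LM1, the most, from control means of 0.297 to 1.10 CPM in these lines. Both NAD kinases, Nadk and Nadk2, which supply NADP, were lower in all 4 lines, with Nadk2 at -0.49 in MYAZ16.1e and -1.05 in LM1.

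Aldh1l2 and Mthfd2, mitochondrial folate enzymes that also form NADPH, rose in all 4 lines. Aldh1l2 rose by 3.95 in MYAZ16.1e and 4.48 in LM1-LM, and Mthfd2 by 1.82 and 2.47. Of 5 folate genes 4 passed in each line, 2 higher and 2 lower. Of 17 NADPH-using enzymes, 11, 15, 16 and 17 passed, in the order of lines used above, with 8, 10, 9 and 10 of them lower. The proline synthesis enzymes Pycr1 and Aldh18a1 rose by 2.61 and 2.55 in LM1-LM, whereas fatty acid synthase (Fasn) fell by 1.73 there. Of 10 sterol and lipid synthesis genes, 10, 10, 9 and 9 passed, with 10, 9, 8 and 8 lower, among them Insig1 (-1.56 in MYAZ16.1e and -1.33 in LM1-LM). Of 8 NRF2 sentinel genes, 5, 7, 8 and 8 passed with 4, 4, 5 and 5 higher, led by the cystine transporter Slc7a11 (3.42 in MYAZ16.1e and 3.93 in LM1-LM) and by Hmox1 (2.11 and 3.83). Of 12 genes of the malate and citrate shuttles, 10, 10, 9 and 10 passed, 4, 4, 4 and 5 of them higher, with Got1 at 1.12 in LM1-LM. These counts, and those of the other pentose phosphate genes and NAD kinases, stand against the 53.7% to 72.4% of all genes that passed. By direction 26.6% to 36.5% of all genes were higher and 27.1% to 35.9% lower. Several of the totals lie near the share of all genes.

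In control medium the subtype comparison asked how NADPH supply genes differ with metastatic potential. All LM and LM-LM lines descend from Myc310, so the 3 comparisons with MYAZ set 1 lineage against the same MYAZ libraries. Metastatic potential and lineage cannot be told apart here, also where each line is counted once. In the fit over cultures the 3 cultures of a line count as separate samples. There G6pdx, Pgls, Idh1 and Idh2 stood above MYAZ in each of the 3 other subtypes. Tkt and Nnt did so in Myc310 and Pgd in LM and LM-LM, and Me1 was lower in Myc310 and LM. With counts summed per line, so that each line counted once, 0 of the 10 passed in Myc310, 1 (Pgls) in LM and 0 in LM-LM, and the line means of G6pdx in LM and LM-LM, of Pgls in LM and of Idh1 and Idh2 in LM-LM overlapped those of MYAZ. Over cultures, 7 of the 10 passed in Myc310 (6 higher, 1 lower), where 50.9% of 13795 genes did (23.8% higher, 27.1% lower). In LM 6 passed (5 higher, 1 lower), where 60.8% did (30.3% higher, 30.5% lower), and in LM-LM 5 (5 higher, 0 lower), where 62.8% did (30.5% higher, 32.3% lower). Taken library by library, 6 genes did not overlap between Myc310 and MYAZ (44.8% of all genes), 0 for LM (27.5%) and 0 for the LM-LM lines (27%). In LM against Myc310 0 of the 10 passed with edgeR, where 4.94% of all genes did (3.43% higher, 1.51% lower), and 2 did not overlap by library (13.3% of all genes). These were Tkt at -0.50 (standard error 0.18, adjusted p = 0.115), below Myc310 in all LM libraries, and Me1 at 0.23 (standard error 0.089, adjusted p = 0.135), above it in all, and they were also the 2 with an unadjusted p under 0.05. Among the others the difference was -0.22, adjusted p = 0.524 for G6pdx, -0.16, adjusted p = 0.3 for Pgls and -0.10, adjusted p = 0.634 for Idh2, with Pgd at 0.029, Taldo1 at 0.14, Me2 at -0.013 and Idh1 at -0.087 (Nnt is given with its records). In LM-LM against LM 0 passed, where 0.768% did (0.268% higher, 0.5% lower), 0 had an unadjusted p under 0.05, and 0 did not overlap by library (0.188%) or by line mean (4.56%). The values ran from -0.22 for Idh1 and -0.17 for Nnt to 0.042 for Me2, with Tkt at -0.11, Pgls at -0.046, Idh2 at -0.022, G6pdx at -0.015, Pgd at -0.0071, Taldo1 at 0.014 and Me1 at 0.023. DESeq2 also gave 0 in both. Leaving out LM1 brought Taldo1 past the threshold in LM against Myc310 (0.27, adjusted p = 0.00794), and leaving out LM3-LM brought Idh1 past it in LM-LM against LM (-0.53, adjusted p = 0.0486).

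**Figure D4:**
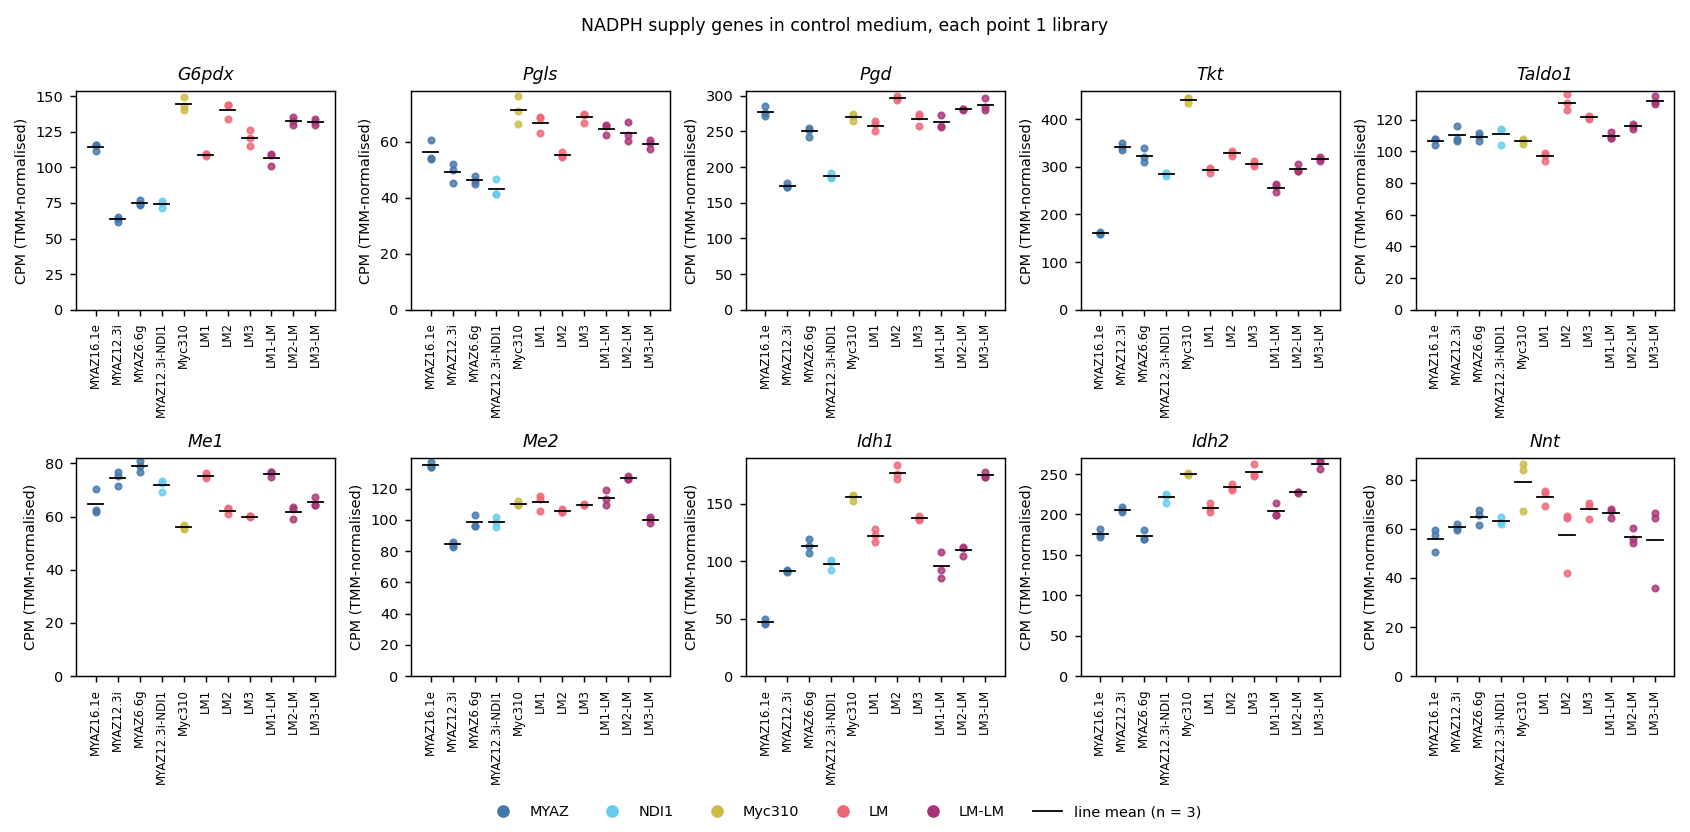
CPM of the 10 genes in control medium in 11 lines, each point 1 library, coloured by subtype, with the line mean as a bar (n = 3 cultures). MYAZ16.1e has the lowest Tkt and Idh1 of all lines and the highest Me2, and G6pdx in the 3 MYAZ lines runs from 63.5 to 114 CPM.

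The lines of a subtype were far apart, which limits these differences. Among the 3 MYAZ lines 8 of the 10 genes differed (73.7% of all genes), as did 8 of 10 among the LM lines (61.3%) and 8 of 10 among the LM-LM lines (67.6%). The log2 difference between the highest and the lowest MYAZ line was 1.27 for Idh1, 1.10 for Tkt, 0.84 for G6pdx, 0.67 for Me2 and 0.66 for Pgd. It was 0.28 for Me1, 0.28 for Pgls and 0.25 for Idh2, and the genes that did not pass were Taldo1 (0.059, adjusted p = 0.281) and Nnt (0.23, adjusted p = 0.258). Among the LM lines those were Me2 (0.053, adjusted p = 0.316) and Nnt (0.31, adjusted p = 0.0768), and the others lay between 0.20 (Tkt) and 0.57 (Idh1), with Pgd, Me1, Pgls, Idh2, G6pdx and Taldo1 in between. Among the LM-LM lines they were Pgls (0.11, adjusted p = 0.18) and Nnt (0.24, adjusted p = 0.153), and the others lay between 0.15 (Pgd) and 0.89 (Idh1), with Taldo1, Me1, Me2, Tkt, G6pdx and Idh2 in between. With both Nnt records summed Nnt differed in each of the 3 subtypes, by 0.20 (adjusted p = 6.58e-05), 0.14 (adjusted p = 0.00862) and 0.29 (adjusted p = 9.17e-08), which made the count 9 of 10 in each. The main record of Nnt also passed in each with no filter on low counts, and among the LM and LM-LM lines without replicate 2. Of the 10 genes Idh1 was the farthest apart in each subtype. With counts summed per line the differences of G6pdx and Idh1 stayed about as large while their calls were lost. G6pdx was then at 0.79, adjusted p = 0.124 in Myc310, 0.57, adjusted p = 0.0834 in LM and 0.57, adjusted p = 0.0816 in LM-LM. Idh1 was at 0.90, adjusted p = 0.249, 0.82, adjusted p = 0.118 and 0.60, adjusted p = 0.222 in the same order. Myc310 is a single sample in that fit, assumed to vary like the lines of the other subtypes. The fibroblast marker sums given above varied by line. Those of MYAZ (7.46 to 88.1 CPM) overlapped those of LM (2.49 to 23.2 CPM) and LM-LM (3.53 to 18.8 CPM). The sums of Myc310 (1.26 to 2.58 CPM) lay below those of MYAZ.

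G6pdx stood at 63.5 ± 1.74 CPM in MYAZ12.3i and 75.0 ± 1.75 CPM in MYAZ6.6g (SD, n = 3 cultures), but at 114 ± 2.49 CPM in MYAZ16.1e. Myc310 had 144 ± 4.56 CPM, the LM lines 109 to 141 CPM and the LM-LM lines 107 to 133 CPM in the line mean. MYAZ16.1e therefore lay inside the range of the LM lines, and the line means overlapped. Against MYAZ G6pdx differed by 0.77 (standard error 0.15, adjusted p = 0.000131) in Myc310. The difference was 0.55 (standard error 0.11, adjusted p = 0.000122) in LM and 0.54 (standard error 0.11, adjusted p = 0.00016) in LM-LM. Without MYAZ16.1e these were 0.83 and 0.82, without MYAZ12.3i 0.39 and 0.37, and without MYAZ6.6g 0.47 and 0.46, and all passed. The Pgd differences were 0.20 (adjusted p = 0.142), 0.23 (adjusted p = 0.0158) and 0.23 (adjusted p = 0.0185) in the same order of subtypes and rested on MYAZ12.3i with 174 ± 3.38 CPM against 250.1 and 277 CPM in the other MYAZ lines. Without MYAZ12.3i it was 0.060 in LM and 0.052 in LM-LM and neither call held, whereas without MYAZ16.1e the Myc310 difference passed, at 0.34, and the others were 0.37 and 0.36. The LM call also ended without LM2, and the LM-LM call without LM2-LM or LM3-LM. Pgls differed by 0.49 (adjusted p = 7.77e-06), 0.33 (adjusted p = 1.35e-05) and 0.29 (adjusted p = 9.01e-05), and its line means of 46.2 to 56.2 CPM in MYAZ and 59.2 to 64.7 CPM in LM-LM did not overlap (43.6% of all genes did not). Those of LM, at 55.2 to 68.7 CPM, did overlap MYAZ, with LM2 below MYAZ16.1e.

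Tkt was highest in Myc310, at 435, 444 and 444 CPM, and lowest in MYAZ16.1e, at 158, 159.9 and 164 CPM, whereas MYAZ12.3i and MYAZ6.6g had 341 and 323 CPM in the mean. The difference of Myc310 from MYAZ passed, at 0.68 (standard error 0.18, adjusted p = 0.00255). It was 0.17 (adjusted p = 0.273) in LM, with an interval of -0.10 to 0.44, and 0.057 (adjusted p = 0.727) in LM-LM, with an interval of -0.22 to 0.33. Leaving out MYAZ16.1e moved all 3 values. The Myc310 difference was then 0.40, adjusted p = 3.41e-05, and no omission of a culture or line ended that call. Without MYAZ16.1e Tkt was lower than MYAZ in LM-LM (-0.22, adjusted p = 0.000979) and at -0.10, adjusted p = 0.0985 in LM, whereas without MYAZ12.3i the LM difference was 0.36, adjusted p = 0.0305. Taldo1 differed least among lines, by 1.36 times between LM3-LM (132 CPM) and LM1 (96.9 CPM), and its differences from MYAZ of -0.036 (adjusted p = 0.769), 0.10 (adjusted p = 0.171) and 0.12 (adjusted p = 0.118) did not pass. They did pass without LM1 (0.23 in LM) and without LM1-LM (0.18 in LM-LM).

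Me1 was lower in Myc310 than in MYAZ, with 56.9, 56.2 and 55.2 CPM against line means of 64.9 to 78.9 CPM, a log2 fold change of -0.38 (standard error 0.090, adjusted p = 0.000819). In LM it was -0.14 (adjusted p = 0.0453), a call that ended without any one of the lines LM2, LM3, MYAZ12.3i and MYAZ6.6g or any one of their 12 cultures, and also with counts summed per line, no filter, the replicate block (adjusted p = 0.0555) or voom, so that 20 of 31 alternatives lost it. In LM-LM it was -0.12 (adjusted p = 0.0887), which passed without LM1-LM or MYAZ16.1e. Over all single-line omissions the LM value ran from -0.24 to -0.084 and the LM-LM value from -0.21 to -0.056. Me2 was at 135 CPM in MYAZ16.1e, the highest of all lines, and at 84.3 CPM in MYAZ12.3i, the lowest. Its differences from MYAZ were 0.055 (adjusted p = 0.728), 0.042 (adjusted p = 0.692) and 0.084 (adjusted p = 0.401) in Myc310, LM and LM-LM. Without MYAZ16.1e they were 0.26, 0.25 and 0.29 and all passed.

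Idh1 had the widest range of the 10 genes, 3.75 times from MYAZ16.1e (50.1, 45.6 and 46.1 CPM) to LM2 (184, 177 and 172 CPM). The other MYAZ lines stood at 91.7 and 114 CPM, Myc310 at 156 CPM, the LM lines at 122, 177 and 138 CPM and the LM-LM lines at 95.7, 109.6 and 175 CPM in the mean. All 3 LM lines were above all 3 MYAZ lines (43.5% of all genes were apart in this way), and the LM-LM lines overlapped them. Idh1 differed from MYAZ by 0.88 (standard error 0.25, adjusted p = 0.00389) in Myc310. The difference was 0.80 (standard error 0.18, adjusted p = 0.000472) in LM and 0.57 (standard error 0.18, adjusted p = 0.00794) in LM-LM. Without MYAZ16.1e the Myc310 and LM differences were 0.59 and 0.51, and both still passed. The LM-LM call ended without LM3-LM (0.26) or MYAZ16.1e (0.29). Idh2 differed by 0.43 (adjusted p = 0.000208), 0.33 (adjusted p = 7.16e-05) and 0.31 (adjusted p = 0.000154), with the 3 LM lines at 209 to 253 CPM again all above the MYAZ lines at 173 to 206 CPM. The LM-LM lines, at 205 to 262 CPM, overlapped MYAZ, with LM1-LM below MYAZ12.3i, and without LM3-LM their difference was 0.20.

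Nnt differed from MYAZ by 0.38 (adjusted p = 0.0182) in Myc310 with the main record and by 0.47 (adjusted p = 9.4e-07) with the sum of both. The main-record call was lost without MYAZ16.1e or without Myc310 control replicate 2 or 3. In LM the main record gave 0.13 (adjusted p = 0.257) and the sum 0.15 (adjusted p = 0.00726), and in LM-LM -0.039 (adjusted p = 0.746) and 0.016 (adjusted p = 0.786). The difference between LM and Myc310 was -0.25 (adjusted p = 0.33) with the main record and -0.31 (adjusted p = 0.00327) with the sum, the only one of the 10 genes that passed in that comparison when its records were summed.

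**Figure D5:**
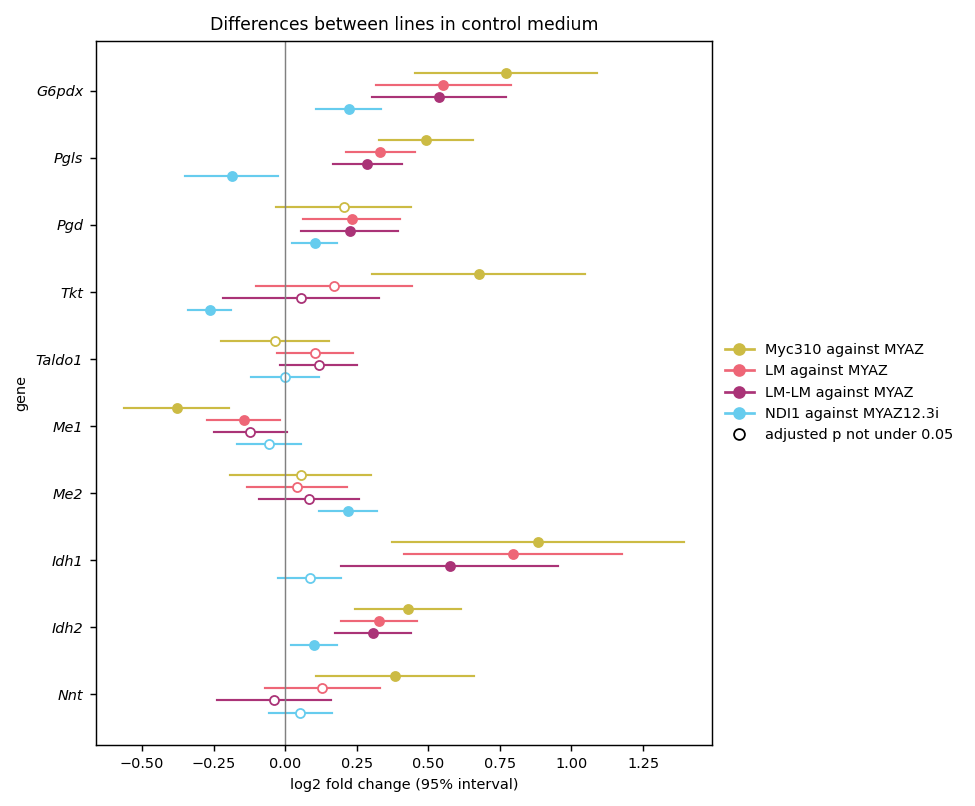
Log2 fold change of each gene in control medium against MYAZ in Myc310, LM and LM-LM, and in the NDI1 line against MYAZ12.3i, with 95% intervals from edgeR's quasi-likelihood fit, open where the adjusted p was not under 0.05. G6pdx, Pgls, Idh1 and Idh2 lie to the right of 0 in the 3 subtypes, and Tkt and Pgls lie to the left of 0 in the NDI1 line.

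Of the other pentose phosphate genes 5 of 8 passed in Myc310 and in LM (5 higher, 0 lower in each) and 6 in LM-LM (5 higher, 1 lower). Prps2 was higher than in MYAZ by 1.38 in Myc310, by 1.17 in LM and by 1.13 in LM-LM, and Rpia, which converts ribulose 5-phosphate to ribose 5-phosphate, by 1.33, 0.45 and 0.49. Of 12 shuttle genes 8, 8 and 9 passed (5, 6 and 7 higher), with pyruvate carboxylase (Pcx) at 1.53, 1.62 and 1.19 and Me3 at -1.35, -1.78 and -1.98. Of 5 folate genes 5, 4 and 4 passed (3 higher in each), with the cytosolic Aldh1l1 at -3.85, -4.90 and -4.67. NADPH-using genes passed in 14, 13 and 14 of 17 cases (5, 6 and 7 higher), sterol and lipid synthesis genes in 9, 7 and 7 of 10 (3 higher in each), NRF2 sentinel genes in 4, 5 and 6 of 8 (1, 1 and 2 higher) and NAD kinases in 1, 2 and 2 of 2 (0, 1 and 1 higher). These counts stand against 50.9%, 60.8% and 62.8% of all genes, with 23.8%, 30.3% and 30.5% of all genes higher, and several lie near those shares. Counts and values of these lists are from the fit over cultures, and they were not worked out with counts summed per line.

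The NDI1 line was compared with MYAZ12.3i, the line its label names. G6pdx, Pgd, Me2 and Idh2 were higher and Tkt and Pgls lower, so that 6 of the 10 genes passed (4 higher, 2 lower), against 17.4% of 12841 genes (8.14% higher, 9.27% lower). Tkt was at 334, 349 and 341 CPM in MYAZ12.3i and 288, 280.1 and 288 CPM in the NDI1 line, G6pdx at 64.9, 64.0 and 61.5 CPM and 74.8, 76.2 and 71.7 CPM, and Me2 at 82.6, 84.2 and 86.2 CPM and 98.7, 95.4 and 102 CPM. These 3 genes, Pgd and Idh2 did not overlap between the lines, 5 of the 10, as did not 34.7% of all genes. The differences on the log2 scale were -0.26 (standard error 0.027, adjusted p = 2.46e-05) for Tkt, 0.22 (standard error 0.041, adjusted p = 0.00187) for G6pdx and 0.22 (standard error 0.037, adjusted p = 0.000948) for Me2. Pgd (0.10, adjusted p = 0.0225), Idh2 (0.10, adjusted p = 0.0263) and Pgls (-0.19, adjusted p = 0.0368) each lost their call with single libraries left out, Pgd without replicate 1 or 2 of either line, Idh2 without any but NDI1 replicate 3, and Pgls without MYAZ12.3i replicate 2 or 3 or NDI1 replicate 1 or 2 and also with DESeq2. Taldo1 (-0.00024, adjusted p = 0.998), Me1 (-0.056, adjusted p = 0.376), Idh1 (0.085, adjusted p = 0.158) and Nnt (0.053, adjusted p = 0.396) did not pass, with intervals of -0.12 to 0.12, -0.17 to 0.055, -0.025 to 0.20 and -0.057 to 0.16. Idh1 passed without NDI1 replicate 3. With 1 line, an effect of what the label names and another difference between the lines cannot be told apart. Of the lists, NADPH-using genes had 9 of 17 past the threshold (9 higher, 0 lower) and sterol and lipid synthesis genes 8 of 10 (7 higher, 1 lower). The other pentose phosphate genes had 2 of 8 (0 higher, 2 lower), the folate genes 3 of 5 (1 higher, 2 lower), the NAD kinases 1 of 2, the shuttle genes 1 of 12 and the NRF2 sentinel genes 1 of 8 (1 higher in each of these 3 lists), against 17.4% of all genes.

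Compared per length as TPM (counts divided by the summed length of all annotated exons of a gene, then scaled to the library) over the 11 lines in control medium, Idh2 had the highest median line level of the 10, 279.6 TPM, followed by Taldo1 at 171 TPM. Idh1, Tkt, Pgd and G6pdx had medians of 139.5, 137, 136 and 121 TPM, within ranges over lines that overlap. Me1, Pgls, Me2 and Nnt had 56.4, 52.2, 49.4 and 30.4 TPM. The order rests on these exon lengths, which exceed the length of a single transcript where a gene has several. The paralogues G6pd2, Tktl1 and Tktl2 had at most 2 counts in any library.

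Over the 15 group means, the members that ran most alike were Idh1 and Idh2 (Pearson r = 0.82) and G6pdx and Pgd (r = 0.81), and G6pdx and Me1 ran most in opposition (r = -0.78). These points share lines and media and carry no test. Among 9090 genes, the pair most like each member was Nqo2 (r = 0.98) and Prkar2b for Idh1, Alad (r = 0.96) and Pheta1 for G6pdx, Pja1 and Plaa (r = 0.96 for both) for Pgd, Ulk2 and Ddx55 for Pgls, Papln and Cadm1 for Tkt, Tnfaip8 and Tpi1 for Taldo1, Gm7049 and Tead3 for Me1, Mrps15 and Cenpi for Me2 and Ermp1 and Arap1 for Idh2. The highest value for Nnt, with Irx5, was 0.84.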

How the data were processed

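Counts per gene were deposited by the authors as a table of whole-number read counts for 45 libraries, made from polyadenylated RNA (stranded kit) with nf-core RNAseq, STAR and RSEM on GRCm38, as the submitters' processing notes and the study's methods give them. Whether counting used strand is not given in the sources used here. Libraries held 19517859 to 29019988 counts.

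Genes were filtered with filterByExpr and scaled by TMM, and tested with the quasi-likelihood F-test of edgeR 4.0.16 (R 4.3.3) at an adjusted p of 0.05. Subtypes were compared in 30 control libraries, deprivation in 24, the NDI1 line in 6 and lines within a subtype in 33. Intervals are 95% from the fit. DESeq2 1.42.0, RLE normalization, no filter, limma 3.58.1 voom with line as a block, counts summed per line and omission of each culture or line were alternatives. All 10 members are named in each comparison, and genes of the other lists where they passed with an absolute log2 fold change of at least 1 (at most 4 a list) or act next to a member, apart from 1 gene that is not reported here. The members and lists were chosen with earlier results of these data known. Promoters are from RefSeq on GRCm38.p6. Positions are from the GENCODE M21 annotation.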

Additional observations from a re-analysis of the deposited data

Results flagged for a closer look

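A single library stood far from the others of its subtype for Nnt. The main record had 42.2 CPM in LM2 control replicate 3, and 36.0 CPM in LM3-LM control replicate 2. These are 2 of 30 groups tested in this way. The rule assumes independent values, whereas each group held 3 cultures of each of 3 lines, so it gives no rate for chance. With both records summed the 3 control libraries lay at 64.6 to 65.3 CPM in LM2 and 64.4 to 66.5 CPM in LM3-LM. In both libraries the second record of Nnt, which no comparison used by itself, held counts, and its highest count was 630, in LM3-LM control replicate 2. It had counts in 15 of the 45 libraries and 0 in 30.

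The response to deprivation differed from that of MYAZ16.1e by the test of the difference itself for the following genes, as log2 values that share the 6 MYAZ16.1e libraries. In Myc310 the differences were -0.52 for G6pdx, -0.55 for Pgd, -0.73 for Idh1, -0.16 for Idh2. In LM1 the differences were -0.56 for G6pdx, -0.21 for Pgls, -0.35 for Pgd, 0.22 for Me1, -0.15 for Me2, -0.92 for Idh1, -0.14 for Idh2, -0.42 for Nnt. In LM1-LM the differences were -0.63 for G6pdx, -0.31 for Pgls, -0.38 for Pgd, -0.14 for Tkt, 0.29 for Me1, -0.14 for Me2, -1.09 for Idh1, -0.21 for Idh2, -0.31 for Nnt. The cause was not tested. Differences among Myc310, LM1 and LM1-LM were not tested.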

How the results depend on the processing

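Cultures of a line are the replicates, each subtype under deprivation is 1 line, and the order of subtypes rests on 3 lines or 1. Of the members' values over all alternatives, 2545 kept their direction and side of the threshold, 85 lost it, 35 gained it and 85 reversed in sign. With counts summed per line, members past the threshold numbered 0 for Myc310 against MYAZ, 1 for LM against MYAZ and 0 for LM-LM against MYAZ. The number of all genes past it was then 1429 (Myc310), 3788 (LM) and 4226 (LM-LM) against MYAZ, where the fit over cultures gave 7022, 8385 and 8661, and 2 and 0 for LM against Myc310 and LM-LM against LM, where it gave 681 and 106. Fewer libraries enter that fit. With voom and line as a random block all genes past it numbered 2819, 4759, 5054, 37 and 0. DESeq2 gave 236 for LM-LM against LM, and no filter beyond 1 count gave 65. With both Nnt records summed 1 member passed in LM against Myc310. Leaving out 1 replicate or line gave member counts of 6 to 8 for Myc310 against MYAZ, 4 to 7 for LM against MYAZ, 3 to 7 for LM-LM against MYAZ, 0 to 1 for LM against Myc310, 0 to 1 for LM-LM against LM, 3 to 5 for deprived MYAZ16.1e, 6 to 8 for deprived Myc310, 7 to 10 for deprived LM1, 9 to 10 for deprived LM1-LM, 3 to 7 for the NDI1 line.

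Apart from omissions, the following values reversed in sign. The response of Me1 in Myc310 minus MYAZ16.1e was -0.0036, and it was 0.0042 with DESeq2, 0.0036 with RLE normalization and 0.00096 with no filter. Taldo1 in the NDI1 line was -0.00024, and it was 0.0016, 0.00010 and 0.0021 under the same settings. The response of Taldo1 in LM1 minus MYAZ16.1e was -0.0068 with only the libraries of those lines. Summing the Nnt records, an alternative chosen after seeing the data, gave 0.016 for LM-LM against MYAZ and -0.054 for deprived MYAZ16.1e. The causes were not tested.

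Leaving out 1 replicate or line reversed the sign of 26 log2 values, whose ranges follow. One of these passed the threshold after it reversed, Tkt in LM-LM against MYAZ without MYAZ16.1e. LM-LM against LM gave G6pdx from -0.11 to 0.093, Idh2 from -0.13 to 0.063, Me1 from -0.066 to 0.12, Me2 from -0.039 to 0.12, Pgd from -0.060 to 0.056, Pgls from -0.14 to 0.021, Taldo1 from -0.11 to 0.11. LM against Myc310 gave Idh1 from -0.26 to 0.034, Me2 from -0.024 to 0.0042, Pgd from -0.039 to 0.082. Deprived MYAZ16.1e gave Me1 from -0.029 to 0.081, Nnt from -0.062 to 0.055. Deprived Myc310 gave Me1 from -0.019 to 0.027. The response of Myc310 minus MYAZ16.1e gave Me1 from -0.072 to 0.038, Me2 from -0.00064 to 0.046, Tkt from -0.066 to 0.015. LM against MYAZ gave Me2 from -0.10 to 0.25, Tkt from -0.10 to 0.36. LM-LM against MYAZ gave Me2 from -0.055 to 0.29, Nnt from -0.12 to 0.030, Tkt from -0.22 to 0.24. Myc310 against MYAZ gave Me2 from -0.085 to 0.26. The NDI1 line gave Taldo1 from -0.026 to 0.045. The response of LM1 minus MYAZ16.1e gave Taldo1 from -0.021 to 0.044, Tkt from -0.075 to 0.0086. The response of LM1-LM minus MYAZ16.1e gave Taldo1 from -0.0067 to 0.066.

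Cultures with the same replicate number did not all deviate together. The correlation of their deviations from the group means was -0.388 to 0.301 between the media of a line and between MYAZ12.3i and its NDI1 line, and -0.300 to 0.376 over 55 pairs of lines per number in control medium, with medians of 0.0092 to 0.013. A fit with the replicate number as a block gave 5 members past the threshold for LM against MYAZ, where the fit without it gave 6, and the same member counts in the other comparisons. For LM-LM against LM the block gave 68 genes in place of 106. The cultures share only a number.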
